A study of Cinachyrella cavernosa with 3 samples.

Results

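Healed tissue of Cinachyrella cf. cavernosa, a marine demosponge, was set against tissue of the same species before wounding, with 1 RNA library on each side. The coding sequences described here are those listed in both deposited tables and given 20 reads or more by one or the other. They number 1230 of the 1320 listed in both tables, of 2735 listed in either, and of 3229 listed anywhere in the series. The study has 3 libraries, from unwounded, regenerating and healed sponges, and no replicates. Animals were acclimatised for 2 weeks in aquaria, and the wounds, shaped after fish bites, took about 10% of the sponge's volume, per the labels' protocols. The library before the wound is the study's control, and no genotype, age or day of sampling is given in the sources used here. Whether the 3 libraries come from the same animals, and how many animals each holds, is likewise not given, so animal and stage cannot be told apart.

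Sponges have no organs and live by pumping water through a system of canals and chambers, and flagellated choanocytes line the chambers. Their mobile archaeocytes can divide and turn into other cell types, and together with choanocytes they are known as the source of new cells when a demosponge closes a wound. Comparing healed with unwounded tissue asks how near the transcript levels of the repaired animal lie to those before injury. The deposited tables hold reads, length and FPKM under an identifier for each coding sequence, and pair no identifier with a gene name. No role could therefore be given to any of them, no cell type marker could be checked, and whether a sequence is the sponge's own or that of an organism living in it was not tested. In a bulk library, fewer cells of a type and less RNA per cell cannot be told apart.

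The library before the wound held 773142 reads on 1928 coding sequences, and that after regeneration 965464 reads on 2127. All counts in both tables were even, so a read pair stands for 2 reads and counting errors were computed on pairs. The 1230 coding sequences held 95.01% of the reads in the unwounded and 96.1% in the healed library. Levels are counts per 1000000 reads (CPM) after scaling, and differences are given as log2(CPM + 1), a scale on which those of low sequences come out too small. With 1 library per side no test between the stages exists, no p-value is given, and every difference is one between 2 libraries.

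Levels in healed and unwounded tissue were scattered around equality far more widely than counting error alone would give. The scaling places the typical coding sequence near no difference by construction, so the centre of the distribution is not a result. The median log2 fold change, after regeneration minus before the wound, was -0.06, and the middle 50% of coding sequences lay between -0.73 and 0.68. Within 2-fold lay 824 of the 1230, or 67.0%. The SD over coding sequences was 1.12 on the log2 scale, while counting of read pairs alone would give 0.396. The exact 95% counting interval of the ratio left out equal levels for 692 coding sequences (56.3%), more than the 406 that were 2-fold apart or more, which shows how small a difference the counts of abundant sequences resolve. These intervals say nothing of the variation from animal to animal.

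**Figure D1:**
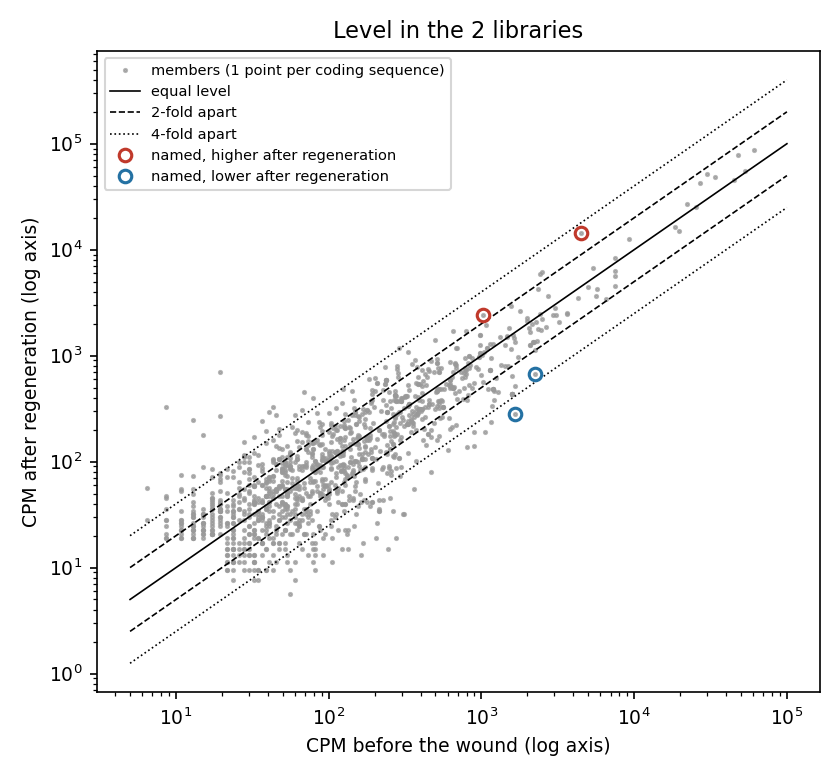
CPM of each of the 1230 coding sequences before the wound (x axis) and after regeneration (y axis), both on log axes, 1 point per coding sequence and 1 library per axis. Dashed lines mark 2-fold in CPM, without the 1 that is added before taking log2. Some scarce sequences among the 824 counted as within 2-fold on log2(CPM + 1) therefore lie just outside them. The 4 named coding sequences are circled, 2 above and 2 below the line of equal level.

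Among coding sequences listed in both libraries, more were far lower than far higher. At least 4-fold higher after regeneration were 30 coding sequences (2.44% of the 1230), and at least 4-fold lower were 59 (4.8%). At 2-fold the numbers were 182 higher (14.8%) and 224 lower (18.2%), and at 8-fold 5 higher (0.407%) and 10 lower (0.813%). These members are the whole of what was compared, so these percentages are at once the counts and their background. Scaling by library totals, which moved the median to -0.20, gave 25 higher and 78 lower at 4-fold. Scaling by a factor from all sequences listed in both libraries gave 37 and 57. Reading a sequence missing from a table as 0 reads turned the balance, to 543 higher and 479 lower of 2163.

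Picking sequences by a 4-fold difference itself sets low counts in one library against high counts in the other, so the reads that follow only describe the picks. The 30 coding sequences at least 4-fold higher had between 6 and 270 reads before the wound, with a median of 18. After regeneration they had between 48 and 1264, with a median of 196. The 59 lower ones ran the other way, from 32 to 1550 reads with a median of 140 before the wound, down to 6 to 300 reads with a median of 24. Neither group was long: their median lengths were 358.5 and 387 bases, against 390 for all 1230. By deposited FPKM, 30 of the 30 and 58 of the 59 had the same direction. The remaining one of the 59 had an FPKM of 0 in at least one library.

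Both groups together made up a small part of the RNA counted. The 30 took 0.134% of the reads in the unwounded and 0.772% in the healed library. The 59 took 1.81% and then 0.28%. The 824 within 2-fold carried most reads on both sides, 84.1% before the wound and 86.2% after regeneration.

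The most extreme differences were found among sequences with few to moderate counts. The 5 that were at least 8-fold higher had 8 to 18 reads in unwounded and 188 to 738 in healed tissue. They were 297 to 486 bases long, and FPKM kept 98.85% or more of their read pairs in both libraries, so their reads showed no sign of being shared with a copy. The 10 at least 8-fold lower had 52 to 288 reads before the wound and 6 to 34 in healed tissue, over 276 to 921 bases. For 8 of these 10, FPKM kept 90% or more of the pairs in both libraries. One of the others, of 420 bases with 190 and 20 reads, kept 33.1%, and one of 402 bases with 124 and 16 reads kept 85.8% after regeneration. All 15 lay under 400 mean reads.

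The spread of the fold changes differed with abundance. Classes were made by the mean number of reads over the 2 libraries. In the 123 coding sequences under 25 mean reads the SD of log2 fold change was 1.01, and counting error alone would give 0.704. In the 238 with 25 to under 50 it was 1.14 against 0.536, and in the 250 with 50 to under 100 it was 1.19 against 0.384. The observed spread thus did not shrink with the counting error over these classes.

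It was widest in the 224 coding sequences with 100 to under 200 mean reads, at an SD of 1.36, where counting error would give 0.287. That class held 13 of the 30 coding sequences at least 4-fold higher and 18 of the 59 lower. Its middle 50% was no wider than in the class below (1.54 against 1.65 on the log2 scale), so the larger SD came from its outer members. Above it the spread narrowed. The SD was 0.954 in the 206 with 200 to under 500 mean reads, 0.915 in the 145 with 500 to under 2000, and 0.589 in the 44 with 2000 or more.

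After taking the counting variance off, SDs of 0.728, 1.01, 1.12, 1.33, 0.938, 0.909 and 0.588 remained from the lowest to the highest class. The lowest class is bounded by how members were chosen, since the filter of 20 reads and the smallest listed counts of 6 and 4 leave little room for a large fold at few reads. Of the coding sequences under 25 mean reads, 0 were at least 4-fold higher and 1 was at least 4-fold lower. In the next class, of 25 to under 50, 9 were higher and 15 lower by that much. Members must also be listed in both tables, which left out more of the scarce sequences. Of before-wound sequences, 49.2% under 25 reads, 79.1% at 100 to under 200 and 100% at 2000 or more were listed after regeneration. In the other direction the values were 39.0%, 72.8% and 100%. What this took from the spread of each class was not tested. Among all members the size of the fold change and the mean reads had a Spearman rho of -0.157 over 1230 coding sequences, which share the same 2 libraries and are not independent.

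**Figure D2:**
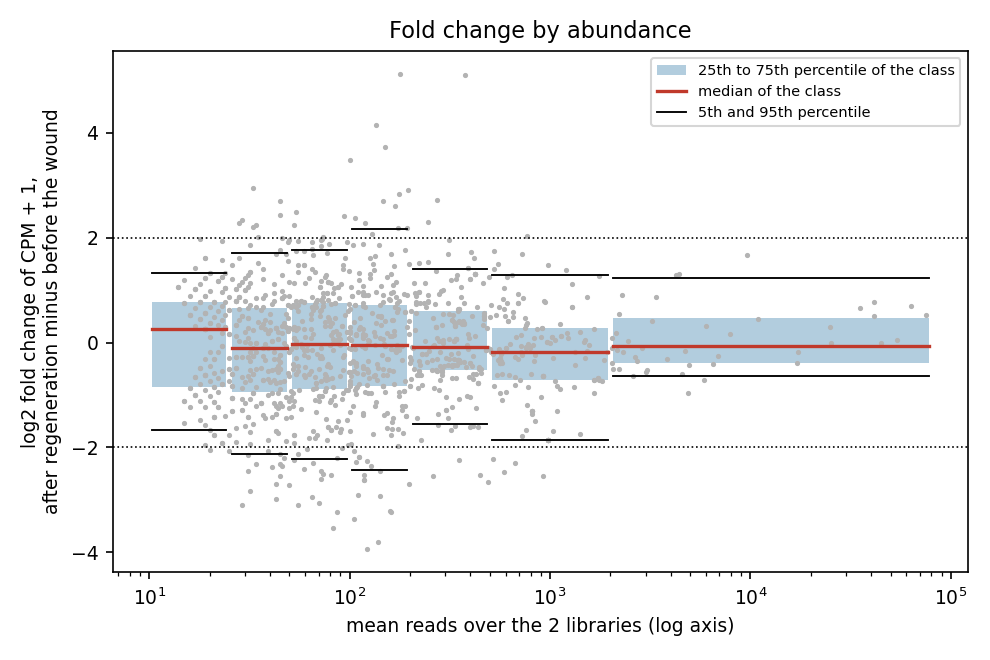
Log2 fold change of CPM + 1, after regeneration minus before the wound, against mean reads over the 2 libraries (log axis), 1 point per coding sequence, with the median, the 25th to 75th percentile and the 5th and 95th percentile of each of 7 abundance classes; dotted lines mark 4-fold. The medians stay between -0.17 and 0.26, and the 5th to 95th percentile range is widest at 100 to under 200 mean reads, from -2.43 to 2.17.

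Class medians lay near that of all members, with the outer parts less even. They were 0.26, -0.10, -0.03, -0.04, -0.09, -0.17 and -0.06 from the lowest to the highest class. Relative to the median of all members they stood at 0.32, -0.05, 0.03, 0.02, -0.03, -0.11 and 0.0003. The highest belonged to the class under 25 mean reads, where counts were a median of 18 before the wound and 22 after regeneration. The lowest belonged to the class of 500 to under 2000, in which 58 of 145 coding sequences (40.0%) were higher after regeneration by this scaling and 44 by library totals. In that class 12 were higher by 2-fold or more, and 25 were lower by as much. With each set of identical counts taken once, the 25 became 16. At 50 to under 100 mean reads, 4 of 250 were higher by 4-fold or more and 17 were lower by that much.

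Of the coding sequences 4-fold apart, 26 of the 30 higher and 51 of the 59 lower had under 200 mean reads. Most members lie there too, as only 395 of the 1230 had 200 or more. By class, such calls were most frequent at 100 to under 200 mean reads, with 5.80% higher and 8.04% lower. Under 25 mean reads the values were 0% and 0.813%. Of the 395 coding sequences with 200 or more, 4 were at least 4-fold higher and 8 lower. Of the 44 with 2000 or more, 0 were 4-fold apart. Within 2-fold were 41 of them (93.2%), and the other 3 were all higher after regeneration. For these 44 the counting interval reached a median factor of 1.06 to either side, so a difference of 2-fold would have been plain in the counts. Under 25 mean reads that factor was 2.87, and a difference of 2-fold was not resolved there for most sequences.

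Against the same unwounded library, the tissue sampled during regeneration was spread more widely in every abundance class. Over the 908 coding sequences compared there, the SD was 1.51 on the log2 scale, and 50.2% lay within 2-fold. With 2000 or more mean reads the SD was 1.37 over 34 coding sequences during regeneration, and 0.589 over 44 after it. Under 25 mean reads the SDs were 1.11 and 1.01. The comparisons share the unwounded library and hold partly different coding sequences, and the difference between them was not tested.

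**Figure D3:**
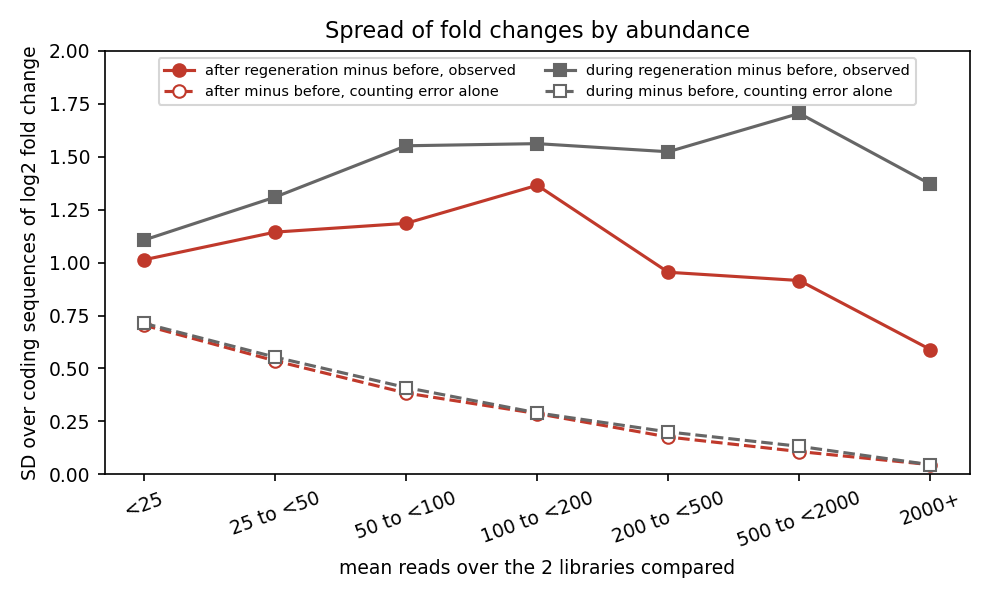
SD over coding sequences of log2 fold change by class of mean reads (x axis), for tissue after regeneration (circles) and during regeneration (squares), each against the unwounded library; filled symbols are observed and open symbols what counting error alone would give. After regeneration the observed SD goes from 1.36 at 100 to under 200 mean reads down to 0.589 at 2000 or more, while during regeneration it is 1.37 in that last class.

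The fold changes differed little between length classes. All lengths were multiples of 3, and 651 of the 1230 coding sequences had 300 to under 400 bases. Their median log2 fold change was 0.03. It was -0.24 in the 364 with 400 to under 600 bases, -0.21 in the 141 with 600 to under 1000 and 0.07 in the 61 with 1000 or more. The 13 under 300 bases had a median of -0.07. There was no steady course with length, and the Spearman rho between length and fold change was -0.057 over the 1230. Between mean reads and fold change it was -0.0083, so the direction of the fold followed neither closely.

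Relative to the median of all members, which takes out the scaling, the class of 400 to under 600 bases stood 0.18 lower and that of 300 to under 400 stood 0.09 higher on the log2 scale. Both offsets are small beside the middle 50% of either class, which spanned 1.32 and 1.49. Among sequences with at least 100 reads in one library the offset at 400 to under 600 bases was -0.05, while that at 600 to under 1000 bases was -0.20. Split by mean reads instead, the 198 of 400 to under 600 bases with 100 or more stood 0.09 below the median of all members. The 166 with under 100 stood 0.23 below it, so the size of the offset depended on the cut. After regeneration 42.3% of the coding sequences of 400 to under 600 bases and 41.1% of those of 600 to under 1000 were higher than before, against 51.5% at 300 to under 400 and 55.7% at 1000 or more. By library totals the numbers higher were 143 of 364, 52 of 141, 295 of 651 and 29 of 61.

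The spread varied little with length. The SD of log2 fold change was 1.13 at 300 to under 400 bases, 1.08 at 400 to under 600, 1.11 at 600 to under 1000 and 0.954 at 1000 or more. Longer sequences had more reads, with a median of 213 mean reads at 1000 or more bases against 81 at 300 to under 400, and so a smaller counting error of 0.244 against 0.419. The SD of 1.81 under 300 bases comes from 13 coding sequences, one of them at 5.10, with 18 reads in unwounded and 738 in healed tissue. At 4-fold, 18 of the 651 sequences of 300 to under 400 bases were higher and 31 lower, 7 and 16 of the 364 next in length, 3 and 9 of the 141, and 1 and 2 of the 61.

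**Figure D4:**
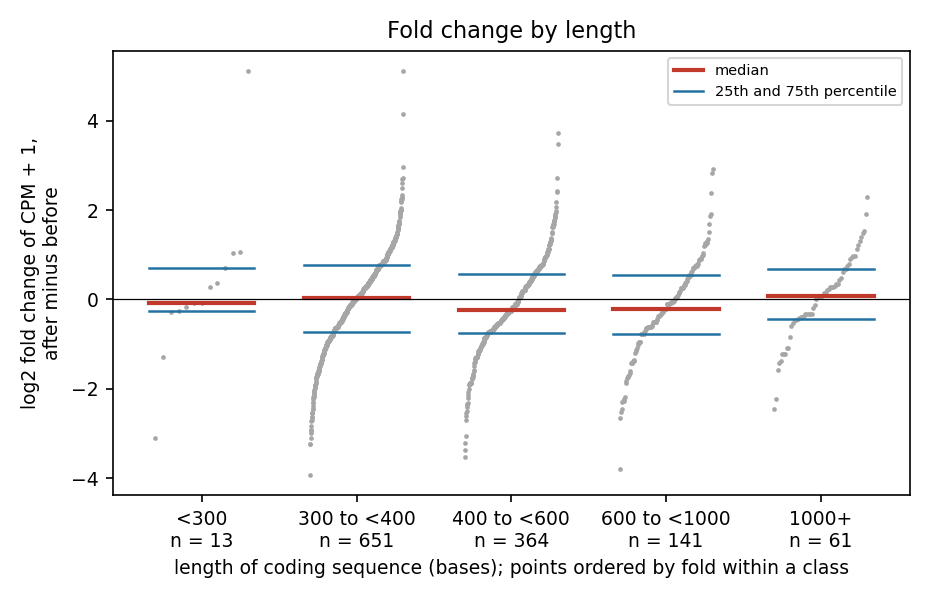
Log2 fold change of CPM + 1, after regeneration minus before the wound, in 5 length classes, 1 point per coding sequence ordered by fold within its class, with the median and the 25th and 75th percentile. The class medians lie between -0.24 and 0.07 and the classes overlap almost completely.

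In terms of reads, the healed library leaned further toward a few very abundant short sequences. The 10 most abundant members, 300 to 408 bases long, took 43.98% of the reads in the unwounded and 52.4% in the healed library. Of these 10, 7 had a higher CPM after regeneration, and 6 had a higher share of reads or a higher FPKM. Their log2 fold changes lay between -0.18 and 0.78, so all 10 stayed within 2-fold.

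The most abundant of them, of 375 bases, had 56768 reads in unwounded, 67504 in regenerating and 93034 in healed tissue. The next, of 330 bases, had 44520, 92596 and 82502 reads, and the one of 351 bases had 28108, 58610 and 54946. These 3 gained 2.29, 2.79 and 2.06 percentage points of all reads, at log2 fold changes of 0.53, 0.71 and 0.78. FPKM kept 63.7% and 57.0% of the read pairs of the first before and after, so its level is less certain than the counting interval shows. Others hardly differed. One of 318 bases had 49852 and 58422 reads before and after, at a log2 fold change of 0.05 (95% counting interval 0.02 to 0.07), and one of 327 bases had 41994 and 47638, at -0.0018 (-0.03 to 0.03). By share of reads and by FPKM this pair was lower after regeneration, so a direction cannot be given for either.

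Gains were concentrated and losses were spread out. Members with a larger share after regeneration numbered 525 and gained 17.5 percentage points in all, of which the first 5 held 55.7% and the first 10 held 69.0%. Members with a smaller share numbered 705 and lost 16.4 percentage points, and here it took 42 to reach 50.3%. The 10 with the largest losses held 24.1%. The single largest loss, by an 837-base sequence with 18214 reads before the wound and 15904 after regeneration, was 0.709 percentage points. Since the shares of a library sum to 100%, a gain by a few abundant sequences lowers the share of the rest.

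**Figure D5:**
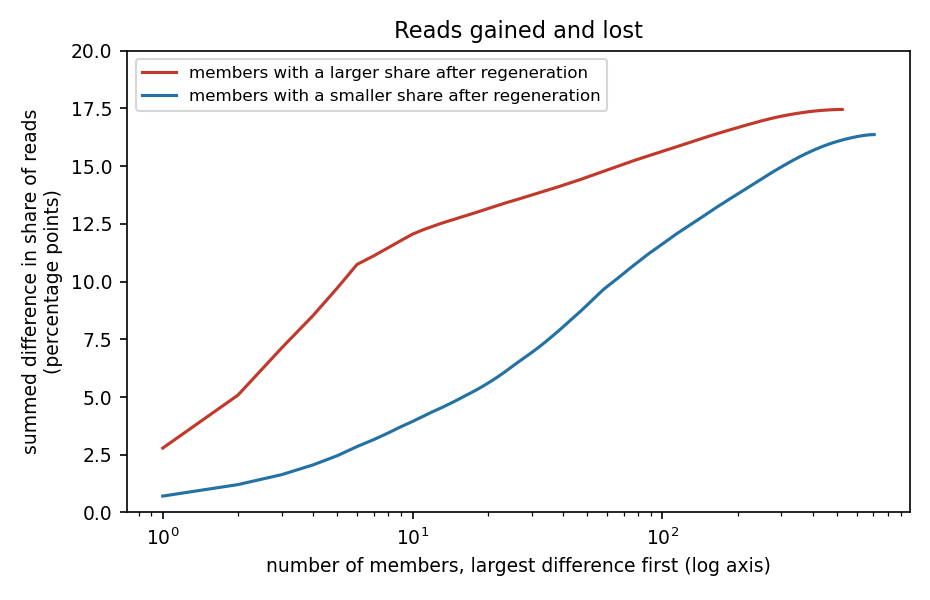
Summed difference in share of reads, in percentage points, over members ordered from the largest difference (x axis, log), for those with a larger share after regeneration and those with a smaller one. The gains reach 12.1 points with 10 members and end at 17.5, while the losses are at 3.94 points with 10 members and end at 16.4.

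The lean toward short sequences was smaller without these few. Coding sequences of 300 to under 400 bases took 63.9% of all listed reads in the unwounded and 70.2% in the healed library, and those of 400 to under 600 bases took 22.3% and 18.5%. Without the 10 most abundant members, the shares were 39.6% and 41.2% for the shorter class and 35.8% and 35.2% for the longer. The class of 600 to under 1000 bases then went from 17.1% to 15.0%, and that of 1000 or more from 6.07% to 6.84%.

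The 4 identifiers named here were chosen by the size of the difference in CPM among members at least 2-fold apart. FPKM also had to keep at least 90% of the read pairs in both libraries, which limits sharing with a copy without excluding it. For the first one named below it kept 91.4% before the wound and 94.2% after regeneration. CDS_29213_Unigene_45573 (537 bases) had 4194 reads in unwounded, 54112 in regenerating and 15094 in healed tissue. Its CPM was 4497 before the wound, 67441 during regeneration and 14248 after it, so the healed tissue lay between the other stages. The healed level was 3.17-fold that before the wound (95% counting interval 3.02 to 3.33), by FPKM 3.01-fold, and by library totals 2.88-fold. Its share of all reads was 0.542% before the wound (exact binomial interval 0.52 to 0.566) and 1.56% after regeneration (1.53 to 1.6).

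CDS_62608_Unigene_97844 (453 bases) had 948, 770 and 2582 reads in the same order, at a CPM of 1016, 959.7 and 2437. Healed tissue had the highest level of the 3 libraries. Regenerating tissue lay below unwounded tissue by CPM, by FPKM and by share of reads, but how far below depended on the scaling. The CPM values were close, while FPKM was 5003 before the wound and 2836 during regeneration, and the share of reads 0.123% and 0.0725%. The healed level was 2.4-fold that before the wound (2.16 to 2.67).

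On the lower side, CDS_60791_Unigene_94999 (375 bases) had 1550 reads in unwounded, 442 in regenerating and 300 in healed tissue, at a CPM of 1662, 550.9 and 283.2. Healed tissue had the lowest level of the 3 libraries, 5.85-fold lower than before the wound (4.92 to 7.04). CDS_21594_Unigene_33566 (330 bases) had 2104, 328 and 718 reads, at a CPM of 2256, 408.8 and 677.8, and the healed level was 3.32-fold lower than before the wound (2.95 to 3.76). By FPKM these 2 were 6.45-fold and 3.66-fold lower. None of the 4 has a gene name in the files.

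Part of the members are copies of one another in the count tables. Of the 1230, 141 shared their length, and their count in each library that lists them, with at least one other; they formed 58 such sets. In 44 sets of 2, FPKM kept a median of 49.3% of the read pairs before the wound and 49.4% after regeneration, and in 8 sets of 3 it kept 33.3% and 33.1%. An equal split would leave 50% and 33.3%. Members without an identical copy kept a median of 98.9% in both libraries. Not all of them did so well: of all 1230 members, 792 (64.4%) kept at least 90% in both libraries. Low kept shares were therefore not confined to the 141 with an identical copy. The medians of the sets of 2 and of 3 were close to an equal split, but single sets were not, with 0% to 81.8% kept before the wound in sets of 2. Whether the read counts repeat the same reads for each copy is not stated in the sources used here. The largest set, 7 coding sequences of 528 bases, had 1484 reads each in unwounded, 246 in regenerating and 462 in healed tissue, which is a log2 fold change of -1.86 counted 7 times; FPKM kept 10.6% and 10.4% of its read pairs before and after, below the 14.3% of an equal split. With 1 sequence per set, 30 of 1147 were 4-fold higher or more and 58 were lower by that much, so identical copies had little part in those counts. Copies that are not identical were not taken out by this step. Among the 792 keeping at least 90% of their pairs in both libraries, 27 were 4-fold higher or more and 45 were lower by that much.

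Folds from reads and from FPKM were close for most members. After centring, 1110 of the 1230 (90.2%) differed by less than 0.5 on the log2 scale between the 2 measures, and 27 differed by 1 or more. Of these 27, 14 had opposite signs, and 0 kept at least 90% of their read pairs in both libraries. A further 23 members had an FPKM of 0 in one library only, and 12 had it in both. The 23 had a median absolute log2 fold change of 0.54 by reads, so a 0 in the FPKM column did not mean that their reads were gone.

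At the edge of the filter, 18 coding sequences had 20 reads as their larger count, and their log2 fold changes ran from -1.10 to 1.05. Just outside it, 20 had 18 reads as their larger count, with fold changes from -1.61 to 0.91. Over all 90 left out by the filter the range was -1.61 to 1.12, so 0 of them would have been 4-fold apart.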

How the data were processed

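Total RNA was extracted with TRIzol and libraries were made with a TruSeq stranded mRNA kit for paired ends, per the labels' protocols. The submitters' processing notes name FastQC, Trimmomatic and RSEM; for assembler, aligner and listing rule the sources used here give nothing. Per the file headers, the authors deposited a read count, a length in bases (an other, plain whole-number column) and an FPKM value per coding sequence. The members and lists were chosen with earlier results of these data known.

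TMM factors came from edgeR 4.0.16 (R 4.3.3) on the 887 coding sequences common to the 3 tables. They were 1.21, 0.755 and 1.1 for unwounded, regenerating and healed tissue, and each multiplied its library total to give the CPM scale. Fold changes used a pseudocount of 1 CPM. Ratio intervals are exact conditional binomial and share intervals Clopper-Pearson, at 95%, on read pairs, and cover counting error only, as reads without molecular identifiers are not independent molecules. The share of pairs that FPKM keeps was taken against the 0.2 quantile of pairs per FPKM among the 61 coding sequences nearest in length, and is approximate. Named coding sequences were the 2 higher and 2 lower, at least 2-fold apart, with the largest CPM difference, 1 per identical set, FPKM keeping at least 90% of pairs and giving the same direction. The fold and interval code was tested on simulated data. No gene list could be used, since no identifier has a name.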

Additional observations from a re-analysis of the deposited data

How the results depend on the processing

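Single libraries leave nothing to test under any setting, and no paired analysis was possible because no stage has a second library. Low sequences are limited by depth, as the intervals show. The 30 higher and 59 lower coding sequences at 4-fold became 182 and 224 at 2-fold and 5 and 10 at 8-fold, as the thresholds require. With at least 100 reads in one library, which leaves 709 to compare, they were 19 and 37. Reading unlisted sequences as 0 reads adds those listed on one side and gave 543 and 479, with 38.1% within 2-fold and a median log2 fold of 0.043. The share within 2-fold was 67.0% as reported, 62.2% by FPKM, 63.3% by centred FPKM and 70.6% with a pseudocount of 5. The median log2 fold of -0.06 moved to -0.20 with library totals and to -0.20 with FPKM, which carry no composition factor. The other alternatives kept both 4-fold counts within 1.5 times. Reads gained by members came to 17.5 percentage points, 16.2 by FPKM times length, and 20.4 without the 10 most abundant over the rest, an alternative chosen after seeing the data. The SDs of all 7 abundance classes stayed within 1.5 times when classes were made by mean CPM.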

Other observations

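Coding sequences listed on one side only lie outside the comparison. Before the wound 608 were listed that were not listed after regeneration, with a median of 30 reads and 4.85% of the reads, and after regeneration 807 were listed that were not listed before the wound, with a median of 26 reads and 3.78% of the reads. Abundance went with listing on both sides. Of the before-wound sequences under 25 reads, 49.2% were also listed after regeneration, against 89.8% of those with 200 to under 500 reads and 45 of 45 with 2000 or more. In the other direction the values were 39.0%, 93.1% and 43 of 43.

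Length classes behaved differently on the 2 sides. The healed library listed 149 coding sequences of 1000 bases or more, of which 61 (40.9%) were also listed before the wound. The unwounded library listed 95 of that length, of which the same 61 made up 64.2%. At 600 to under 1000 bases the order was the other way, with 288 listed before the wound and 255 after regeneration, and 141 shared. The 88 of 1000 bases or more listed after regeneration and not before the wound had a median of 113 reads, against 202 for the shared 61 in that library. The 34 listed before the wound and not after regeneration had a median of 114 reads, against 170. The rule of listing is not given in the sources used here, and its part in these numbers was not tested.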
